A study of Mus musculus with 3 samples.

Results

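The genes described are the ligands, receptors and latency proteins of the transforming growth factor beta (TGF-beta) pathway in 3 kinds of mouse cell from the epicardium, the outer cell layer of the heart. The 10 members were taken by their gene symbols from a table of 18245 genes: the ligands Tgfb1, Tgfb2 and Tgfb3, the receptors and co-receptors Tgfbr1, Tgfbr2, Tgfbr3, Acvr1b and Eng, and the latency proteins Ltbp1 and Ltbp3. The series asked how the transcriptome of an epithelial clone, which arose under an inhibitor of this pathway, compared with the cells it came from and with primary epicardial cells.

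TGF-beta ligands are secreted as latent complexes in which the mature dimer stays bound to its own propeptide, and the propeptide is tethered to the matrix by latent TGF-beta binding proteins. Once released, the ligand is bound by the type II receptor, with help from co-receptors, and the type II receptor activates the type I receptor kinase, which phosphorylates Smad2 and Smad3. In the epicardium the pathway is known for driving the epithelial-to-mesenchymal transition.

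The labels give the ventricle epicardium of C57BL/6 mice as the tissue of all 3 kinds. CDC are primary cardiosphere-derived cells, grown out of epicardial explants of 6-week-old mice, passed through floating spheres and expanded as fibroblast-like cells. CDC-EpiC grew from a single epithelial colony, lifted with cloning cylinders after CDC had been held for 2 weeks in 10 µM SB-431542, which blocks the kinase of the type I receptors encoded by Tgfbr1, Acvr1b and Acvr1c. The labels add that remaining mesenchymal cells could be removed by timed trypsin digestion, and do not say whether the inhibitor was still present at harvest. pEpiC are primary epicardial cells released from hearts of 6- to 8-week-old mice with collagenase and trypsin. CDC and pEpiC were used at passage 3. Per the paper, they differed in medium and serum content, and the spheres of CDC were grown with added growth factors. Isolation, medium and kind therefore cannot be told apart in pEpiC against CDC. CDC and pEpiC had no inhibitor per the labels, so the drug, clonal selection and the epithelial state cannot be told apart in any comparison of CDC-EpiC. As CDC-EpiC came from CDC, its comparison with pEpiC also carries the differences in isolation and earlier culture, which cannot be told apart from the rest. The clone is 1 clone, so its 3 libraries hold no difference between clones.

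Each kind had 3 libraries, with total expected counts of 22008833 to 22756045. In the labels 1 sample stands for each kind, while the extraction protocol speaks of 3 separate samples of each kind. The paper's methods speak of 2 biological replicates per condition, while its figure legend for CDC against pEpiC gives n = 3. Neither the labels nor the paper tells whether the libraries came from separate cultures or animals. The p-values therefore measure only the spread between these libraries, which may be technical. The 8 epicardial and mesothelial markers examined (Wt1, Tcf21, Upk3b, Msln, Tbx18, Krt19, Lrrn4 and Aldh1a2) had at least 10 counts in every library of every kind. That floor is low at this depth, and the paper describes CDC as lacking Wt1 and Tcf21. The summed level of the 8 markers was 526 to 550.0 CPM (counts per 1000000 counts) in CDC, 4734 to 5531 in CDC-EpiC and 505 to 531 in pEpiC. In pEpiC against CDC, 4 of the 8 were higher and 4 lower past the threshold given below (39.8% and 38.5% of all genes). Their median size was 2.04 on the log2 scale, against 0.61 over all genes. The clone had 5 higher and 2 lower than CDC (34.2% and 34.6% of all genes), and 6 higher and 2 lower than pEpiC (40.3% and 41.5%). The median log2 change of the 8 was 1.16 against CDC and 1.59 against pEpiC. A sum of CPM is carried by the most abundant markers, so the sums do not measure how far the 8 moved as a set. The pEpiC libraries also held macrophage markers, all 10 of them, at a summed 869 CPM in library 1 against 337 and 310.0 in libraries 2 and 3. Those markers summed to 72.6 to 74.4 CPM in CDC and 30.1 to 33.1 in CDC-EpiC. Only 4 of the 10 had at least 10 counts in every library of CDC, and only 4 in CDC-EpiC. C1qb, Ptprc, Adgre1 and Fcer1g had at most 3 counts in any library of CDC. The same held in CDC-EpiC, there also for C1qa and C1qc, with Ptprc at 0. Red blood cell genes summed to 52.1 and 83.0 CPM in CDC libraries 1 and 2 and to at most 0.228 in each of the other 7 libraries. In bulk RNA, fewer cells that express a gene and less RNA per cell cannot be told apart.

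The start regions of 3 members are shown because Tgfb1 and Tgfb2 were both lower in the clone than in CDC. Ltbp1 had the greatest difference from CDC of all members in CDC-EpiC and in pEpiC. RefSeq promoter windows, from 250 bases before to 50 after a start site on GRCm38.p6, matched 8 of the 10 members with 10 windows. Capitals mark the motifs searched on both strands, which were the TATA box TATAAA, the GC box GGGCGG, the cyclic AMP response element TGACGTCA, the AP-1 site TGANTCA, the Smad-binding motif CAGACA and the CCAAT box CCAAT.
Tgfb1, chr7:25686752-25687051, plus strand: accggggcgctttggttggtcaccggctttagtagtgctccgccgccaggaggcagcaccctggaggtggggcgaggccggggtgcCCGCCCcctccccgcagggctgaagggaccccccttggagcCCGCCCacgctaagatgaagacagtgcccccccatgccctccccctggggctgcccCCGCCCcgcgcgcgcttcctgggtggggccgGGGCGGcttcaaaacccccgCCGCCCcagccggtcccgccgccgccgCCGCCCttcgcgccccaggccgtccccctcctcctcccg
Tgfb2, chr1:186705940-186706239, minus strand: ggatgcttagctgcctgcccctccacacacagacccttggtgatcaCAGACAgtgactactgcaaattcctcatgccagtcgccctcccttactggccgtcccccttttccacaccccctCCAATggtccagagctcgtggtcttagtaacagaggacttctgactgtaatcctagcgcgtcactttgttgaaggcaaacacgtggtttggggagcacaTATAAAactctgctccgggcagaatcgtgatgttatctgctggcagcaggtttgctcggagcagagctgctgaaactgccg
Ltbp1, upstream start, chr17:75005279-75005578, plus strand: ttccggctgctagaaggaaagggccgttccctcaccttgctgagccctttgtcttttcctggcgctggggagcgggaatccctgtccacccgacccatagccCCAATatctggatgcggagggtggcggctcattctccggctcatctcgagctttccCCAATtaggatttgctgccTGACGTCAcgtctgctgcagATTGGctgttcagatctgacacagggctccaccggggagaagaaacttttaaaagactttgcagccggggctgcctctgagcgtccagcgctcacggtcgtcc
Ltbp1, internal start, chr17:75178531-75178830, plus strand: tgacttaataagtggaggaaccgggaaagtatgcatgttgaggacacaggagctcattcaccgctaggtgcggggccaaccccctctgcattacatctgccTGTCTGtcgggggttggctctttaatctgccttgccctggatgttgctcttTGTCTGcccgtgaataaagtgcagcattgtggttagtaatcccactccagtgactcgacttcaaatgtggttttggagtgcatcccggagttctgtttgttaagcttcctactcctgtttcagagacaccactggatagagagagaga

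The Tgfb1 window was 77.0% G and C, against a median of 53.0% over 32544 windows, and held 6 GC boxes, a motif present in 35.9% of those windows. The Tgfb2 window held a TATA box 31 bases before the start (13.6% of windows hold one), 1 CCAAT box (37.4%) and 1 CAGACA (20.9%). The upstream Ltbp1 window held a cyclic AMP response element 73 bases before the start (1.80% of windows) and 3 CCAAT boxes, while the internal one held 2 CAGACA motifs. The AP-1 site, in 7.79% of all windows, was in none of these 4. These matches are descriptions of the letters and not of bound sites. The counts are per gene, so the 2 start sites of Ltbp1 were not separated.

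Levels below are CPM after TMM normalization for differences between kinds, and TPM, the transcripts of a gene per 1000000 transcripts, which are per length, for comparing genes. Log2 changes carry their standard error (SE) and a p from the quasi-likelihood test of edgeR, adjusted over all genes tested (Benjamini-Hochberg, threshold 0.05). Gene spans are those of GENCODE M21 on GRCm38 (mm10), where all 10 members are protein-coding. The plot of levels by library shows the members in the order of their roles.

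**Figure D1:**
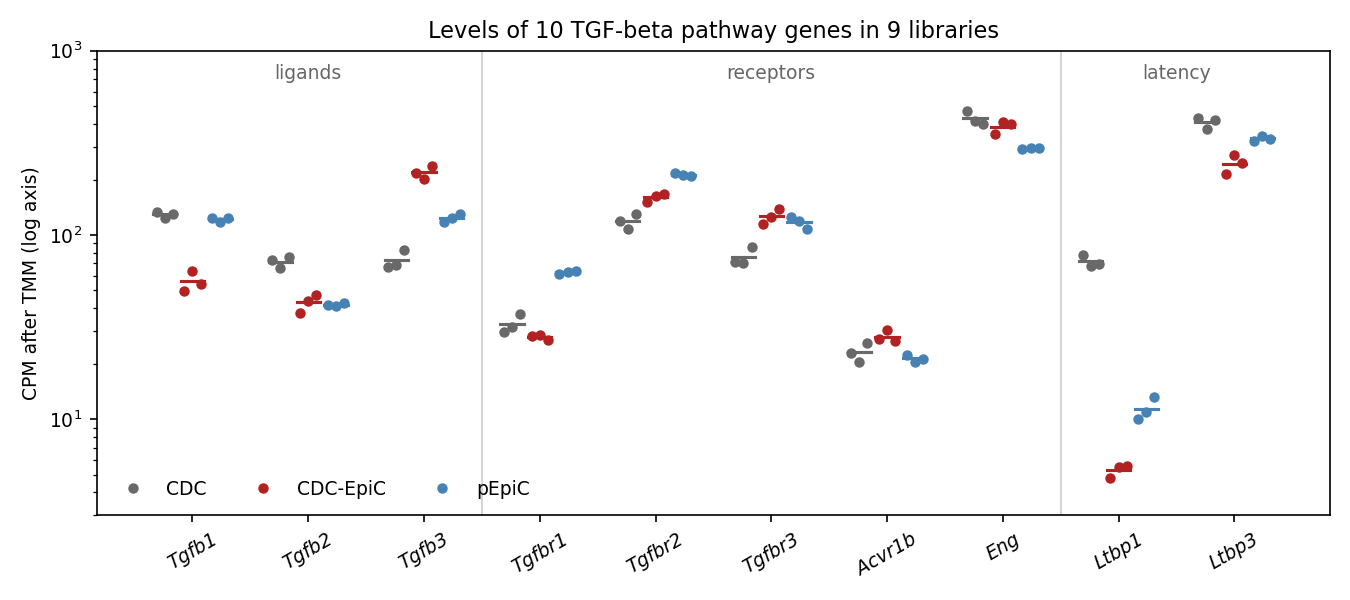
Level of each member in CPM (log axis) in the 3 libraries of CDC (grey), CDC-EpiC (red) and pEpiC (blue), where points are libraries and lines are means. Tgfb1 and Ltbp1 are lowest in CDC-EpiC and Tgfb3 is highest there, while Tgfbr1 and Tgfbr2 are highest in pEpiC.

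The ligands moved in opposite directions in the clone. Tgfb1 (chr7:25687002-25705077, plus strand), the ligand with the widest expression in adult tissue, was at 134, 124 and 131 CPM in the CDC libraries, at 49.6, 64.1 and 54.0 in CDC-EpiC and at 123, 118 and 123 in pEpiC. The clone lay below both other kinds without overlap. Tgfb1 fell by 1.22 on the log2 scale (SE 0.09, adjusted p = 1.3e-08) from CDC to CDC-EpiC, a 2.33-fold difference, and was lower in CDC-EpiC than in pEpiC by a similar step (log2 -1.14, SE 0.08, adjusted p = 5.1e-07). Between pEpiC and CDC the log2 change was -0.13 (SE 0.06, adjusted p = 0.0631). That last value turned to 0.37 on the TPM scale, where the median gene also moved by 0.41, and the adjusted p ranged from 2.9e-04 to 0.831 over the alternatives. Of the pEpiC libraries, the one with the highest macrophage markers (library 1) and the one with the lowest (library 3) were both at 123 CPM of Tgfb1, and the part of macrophages in these levels was not tested.

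Tgfb2 (chr1:186622792-186705989, minus strand), a ligand with prominent roles in heart development, was at 72.9, 66.6 and 75.8 CPM in CDC. It was at 37.9, 43.8 and 47.5 in CDC-EpiC and at 41.6, 41.2 and 42.8 in pEpiC. CDC-EpiC and pEpiC lay below every CDC library and overlapped each other. Tgfb2 fell by 0.75 in CDC-EpiC (SE 0.09, adjusted p = 2.5e-06) and by 0.81 in pEpiC (SE 0.06, adjusted p = 8.5e-07) relative to CDC on the log2 scale. CDC-EpiC minus pEpiC was 0.03 (95% interval -0.14 to 0.19, adjusted p = 0.765), and this value depended on the scale. With an offset that follows transcript length it was 0.39 (adjusted p = 5.6e-04), and on the TPM scale it was -0.34 (adjusted p = 0.00551), over a range of 5.6e-04 to 0.959. The fall in pEpiC was larger with the length offset (log2 -1.19) and smaller in TPM (log2 -0.29), and passed the threshold in both. Tgfb2 shares 124 exonic bases with the antisense gene Gm29491, which was not analysed here.

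Tgfb3 (chr12:86056745-86079041, minus strand), the third mammalian ligand, was the ligand that rose. Its level was 67.1, 68.4 and 82.9 CPM in CDC, 218, 201 and 237 in CDC-EpiC and 117, 124 and 131 in pEpiC. The 3 kinds were fully separated, with CDC lowest and the clone highest. Tgfb3 rose by 1.58 on the log2 scale in CDC-EpiC against CDC (SE 0.09, adjusted p = 9.4e-10), a 2.99-fold difference. It rose by 0.73 in pEpiC against CDC (SE 0.08, adjusted p = 1.6e-05) and was 0.81 higher in CDC-EpiC than in pEpiC (SE 0.07, adjusted p = 1.9e-06). In TPM those last 2 differences were 1.22 and 0.42. Every alternative kept the direction and the call of all 3 Tgfb3 differences. On the opposite strand, Tgfb3 shares 257 and 163 exonic bases with Gm48008 and Gm37804, not analysed here.

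The makeup of the ligand transcripts therefore differed between the kinds. Of the TPM of the 3 ligands together, Tgfb3 made up 20.4%, 22.1% and 24.3% in the CDC libraries, 67.6%, 60.5% and 66.8% in CDC-EpiC and 34.5%, 36.7% and 36.9% in pEpiC. Tgfb1 made up 62.2% ± 2.00 of them in CDC, 26.0% ± 3.61 in CDC-EpiC and 55.4% ± 1.28 in pEpiC (SD, n = 3). Tgfb2 was the least abundant ligand in CDC-EpiC and pEpiC at 9.01% ± 0.61 and 8.60% ± 0.03, and also in CDC at 15.5% ± 0.35. Tgfb3 thus led in every CDC-EpiC library, and Tgfb1 led in every library of the other kinds. The sum of the 3 ligands was 156 to 183 TPM in CDC, 175 to 198 in CDC-EpiC and 239.9 to 252 in pEpiC. The overlap of CDC with CDC-EpiC and the higher pEpiC sums hold for TPM only. That scale placed the median gene of pEpiC against CDC at 0.41, where CPM placed it at 0.02. In CPM the log2 changes of pEpiC against CDC were -0.13 for Tgfb1, -0.81 for Tgfb2 and 0.73 for Tgfb3. The TPM sums therefore do not rank the kinds by total ligand transcripts. The shares were not tested, since 3 against 3 libraries cannot pass 0.05 in an exact permutation test.

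**Figure D2:**
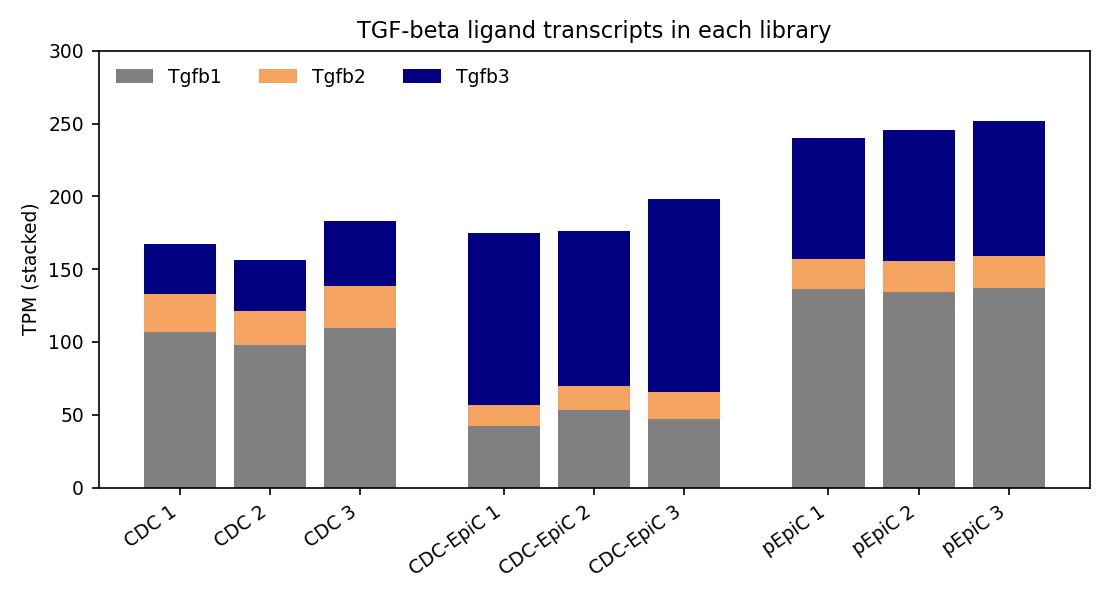
TPM of Tgfb1 (grey), Tgfb2 (orange) and Tgfb3 (blue) stacked for each of the 9 libraries. Tgfb3 makes up 60.5% to 67.6% of the stack in the CDC-EpiC libraries and 20.4% to 24.3% in the CDC libraries.

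Among the receptors, Tgfbr2 and Tgfbr3 were higher in CDC-EpiC and in pEpiC than in CDC, and Tgfbr1 was highest in pEpiC. Tgfbr1 (chr4:47353222-47414931, plus strand) encodes the type I receptor ALK5, the kinase at which SB-431542 is aimed. It was at 29.6, 31.8 and 37.3 CPM in CDC, at 28.4, 28.5 and 27.0 in CDC-EpiC and at 61.7, 62.7 and 63.3 in pEpiC. The pEpiC libraries stood well above the rest and the lowest CDC library lay just above the clone. Tgfbr1 fell by 0.24 from CDC to CDC-EpiC (SE 0.09, adjusted p = 0.0248), but 5 of 16 alternatives lost this call, among them leaving out CDC library 3 (log2 -0.15, adjusted p = 0.104), leaving out CDC-EpiC library 3 (log2 -0.23, adjusted p = 0.0698) and TPM (log2 -0.14, adjusted p = 0.277), over a range of 0.0106 to 0.277. In pEpiC it was 1.86-fold higher than in CDC (log2 0.89, SE 0.08, adjusted p = 2.6e-06) and 2.26-fold higher than in CDC-EpiC (log2 of CDC-EpiC against pEpiC -1.18, SE 0.05, adjusted p = 1.1e-08). With the length offset these became 0.42 and -0.72, still past the threshold.

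Tgfbr2 (chr9:116084293-116175360, minus strand) encodes the type II receptor that binds the ligand and activates the type I kinase. It was at 119.6, 107 and 129.9 CPM in CDC, at 151, 163 and 167 in CDC-EpiC and at 216, 212 and 209 in pEpiC. No libraries of different kinds overlapped. The rise was 0.42 in CDC-EpiC (SE 0.08, adjusted p = 3.3e-04) and 0.80 in pEpiC (SE 0.07, adjusted p = 2.6e-06) against CDC on the log2 scale. CDC-EpiC was 0.42 below pEpiC (log2 -0.42, SE 0.05, adjusted p = 2.9e-05), but with the length offset the difference was -0.05 (adjusted p = 0.313, the highest over the alternatives, with 2.1e-12 the lowest) and the pEpiC rise against CDC shrank to 0.43.

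Tgfbr3 (chr5:107106570-107289629, minus strand) encodes betaglycan, a co-receptor that presents ligand, Tgfb2 in particular, to the type II receptor. It was at 71.2, 70.0 and 85.9 CPM in CDC, at 115, 125 and 139 in CDC-EpiC and at 125, 119 and 108 in pEpiC. CDC-EpiC and pEpiC lay above every CDC library. Tgfbr3 rose by 0.73 in CDC-EpiC (SE 0.09, adjusted p = 5.0e-06) and by 0.60 in pEpiC (SE 0.09, adjusted p = 9.7e-05) against CDC on the log2 scale. The pEpiC rise was lost with the length offset (log2 0.10, adjusted p = 0.263, range 1.1e-10 to 0.263), whereas the CDC-EpiC rise kept its call under every alternative. CDC-EpiC minus pEpiC was 0.09 (95% interval -0.08 to 0.26, adjusted p = 0.294), with 0.57 under the length offset (adjusted p = 7.3e-05) and -0.29 in TPM (adjusted p = 0.0122), over a range of 7.3e-05 to 0.764.

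Acvr1b (chr15:101174067-101213684, plus strand) encodes ALK4, the activin type I receptor, which the inhibitor also blocks. Its level was 22.9, 20.5 and 25.9 CPM in CDC, 27.2, 30.5 and 26.6 in CDC-EpiC and 22.4, 20.5 and 21.2 in pEpiC. The clone was above both other kinds, narrowly so against the highest CDC library. Acvr1b was 1.21-fold higher in CDC-EpiC than in CDC (log2 0.27, SE 0.09, adjusted p = 0.0191), a call lost without CDC library 1 (log2 0.26, adjusted p = 0.0565), CDC library 2 (log2 0.19, adjusted p = 0.098) or CDC-EpiC library 2 (log2 0.20, adjusted p = 0.0971), over a range of 0.00299 to 0.098. Against pEpiC it was 0.38 higher (SE 0.07, adjusted p = 7.3e-04) but level in TPM (log2 -0.0027, adjusted p = 0.972, range 1.4e-04 to 0.972). pEpiC minus CDC was -0.15 (SE 0.09, adjusted p = 0.143), and the alternatives gave -0.30 with the length offset (adjusted p = 0.0079), -0.23 without CDC library 2 (adjusted p = 0.0349) and 0.33 in TPM (adjusted p = 0.0153), over a range of 0.0079 to 0.721. Acvr1c, the remaining target of the inhibitor, had at most 2 counts in any library and was not tested.

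Eng (chr2:32646595-32682669, plus strand) encodes endoglin, a co-receptor best known from endothelium and also used as a surface marker of CDC. It was at 474, 415 and 400.0 CPM in CDC, at 352, 408 and 401 in CDC-EpiC and at 294, 295 and 295 in pEpiC. The clone overlapped CDC, and pEpiC was lowest. CDC-EpiC minus CDC was -0.16 (95% interval -0.35 to 0.03, adjusted p = 0.131), with -0.21 without CDC library 3 (adjusted p = 0.048, range 0.048 to 0.479). Eng was 0.58 lower in pEpiC than in CDC (log2 -0.58, SE 0.07, adjusted p = 4.3e-05) and 0.38 higher in CDC-EpiC than in pEpiC (SE 0.06, adjusted p = 2.0e-04). Both differences were near 0 in TPM, at -0.07 (adjusted p = 0.33, range 8.4e-14 to 0.332) and -0.0043 (adjusted p = 0.951, range 7.8e-08 to 0.951). The 10 endothelial markers summed to 7.51 to 8.61 CPM in CDC, 8.58 to 10.0 in CDC-EpiC, where 4 of them were at 0 in every library, and 24.4 to 26.7 in pEpiC. The part of endothelial cells in the level of Eng was not tested. Eng shares 61 exonic bases with Fpgs on the opposite strand, and whether the counting used strand is not given in the sources used here.

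Per length, Eng was the most abundant receptor of the 5 in every kind, at 218 ± 16.9 TPM in CDC, 207 ± 16.9 in CDC-EpiC and 207 ± 3.65 in pEpiC (SD, n = 3). Its share of the summed receptor TPM was 71.2% ± 3.25 in CDC, 62.3% ± 0.82 in CDC-EpiC and 51.3% ± 0.72 in pEpiC. Tgfbr2 took the next share, 14.3% ± 1.35, 18.7% ± 0.40 and 26.7% ± 0.13 in that order. The type I receptor Tgfbr1 made up 3.30% ± 0.50, 2.72% ± 0.24 and 6.55% ± 0.17, and was below Tgfbr2 in every library. Tgfbr3 made up 7.13% ± 0.98, 11.5% ± 0.62 and 11.6% ± 0.71. The remaining 4.04% ± 0.49, 4.76% ± 0.37 and 3.90% ± 0.15 was Acvr1b, which exceeded Tgfbr1 in the mean of CDC and of CDC-EpiC but not of pEpiC.

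Of the latency proteins, Ltbp1 was far lower in CDC-EpiC and in pEpiC than in CDC. Ltbp1 (chr17:75005568-75392512, plus strand) encodes a latent TGF-beta binding protein that links the latent complex to fibrillin and fibronectin in the matrix. It was at 77.9, 67.9 and 69.7 CPM in CDC, at 4.79, 5.51 and 5.60 in CDC-EpiC (108 to 126 counts per library) and at 9.99, 11.0 and 13.1 in pEpiC. No libraries of different kinds overlapped. Ltbp1 fell by 3.77 on the log2 scale in CDC-EpiC against CDC (SE 0.10, adjusted p = 1.1e-13), a 13.6-fold difference that ranked 152 among all falls of 12976 genes. In pEpiC it was 6.48-fold lower than in CDC (log2 -2.70, SE 0.10, adjusted p = 7.0e-09), which ranked 272 among the falls of 13526 genes. CDC-EpiC was 2.16-fold below pEpiC (log2 -1.11, SE 0.13, adjusted p = 2.1e-05), or -0.68 with the length offset. Direction and call held under every alternative for all 3 differences.

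Ltbp3 (chr19:5740904-5758532, plus strand), a second binding protein of the latent complex, had a higher mean TPM than Ltbp1 in every kind. It was at 433, 374 and 423 CPM in CDC, at 213, 273 and 246 in CDC-EpiC and at 325, 345 and 332 in pEpiC. The clone was lowest, without overlap. Ltbp3 fell by 0.76 in CDC-EpiC (SE 0.10, adjusted p = 4.9e-06) and by 0.33 in pEpiC (SE 0.07, adjusted p = 0.00123) against CDC on the log2 scale, and CDC-EpiC was below pEpiC (log2 -0.47, SE 0.08, adjusted p = 3.3e-04). The pEpiC difference from CDC was -0.66 with the length offset and 0.17 in TPM (adjusted p = 0.0762, range 2.3e-06 to 0.0762). The CDC-EpiC difference from pEpiC was lost with the length offset (log2 -0.14, adjusted p = 0.121, range 4.4e-09 to 0.121). Per length, Ltbp3 was at 160 ± 15.9 TPM in CDC, 99.7 ± 11.4 in CDC-EpiC and 180 ± 7.60 in pEpiC (SD, n = 3), and Ltbp1 at 23.3 ± 1.85, 1.73 ± 0.19 and 5.08 ± 0.78.

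In CDC-EpiC against CDC, 9 of the 10 members passed the threshold, where 68.8% of the 12976 genes tested did. The 4 that rose were Tgfb3, Tgfbr3, Tgfbr2 and Acvr1b (34.2% of all genes rose), and the 5 that fell were Ltbp1, Tgfb1, Ltbp3, Tgfb2 and Tgfbr1 (34.6% fell). The libraries of the 2 kinds did not overlap for 9 members, as for 72.1% of all genes. The median log2 change of the members was -0.20, against 0.0027 over all genes, and their median size was 0.74 against 0.44. This comparison depended least on the scale, since TPM moved the median gene by less than 0.1. In TPM 4 members rose and 4 fell.

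In pEpiC against CDC, 8 members passed, where 78.3% of 13526 genes did. Tgfbr1, Tgfbr2, Tgfb3 and Tgfbr3 rose (39.8% of all genes rose), and Ltbp1, Tgfb2, Eng and Ltbp3 fell (38.5% fell). The libraries did not overlap for 9 members, as for 81.4% of all genes. The median of the members was -0.14 on the log2 scale, against 0.02 for all genes, and their median size was 0.67 against 0.61. The split depended on the scale. In TPM 6 members rose and 2 fell, while of all genes 8237 rose and 2822 fell, against 5380 and 5213 in CPM. With the length offset 3 members rose and 5 fell.

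In CDC-EpiC against pEpiC, 8 members passed, where 81.9% of 13547 genes did. Tgfb3, Acvr1b and Eng were higher in the clone (40.3% of all genes were), and Tgfbr1, Tgfb1, Ltbp1, Ltbp3 and Tgfbr2 were lower (41.5% were). The libraries did not overlap for 8 members, as for 83.8% of all genes. The median of the members was -0.20 on the log2 scale, against -0.02 for all genes, and their median size was 0.44 against 0.71. In TPM, which moved the median gene to -0.33, only Tgfb3 was higher and 7 members were lower, while of all genes 3691 were higher and 7541 lower against 5465 and 5626 in CPM. With the length offset 5 were higher and 3 lower. The 3 comparisons share their libraries in pairs, so their agreement is no independent support. The plot of log2 changes sets these scalings side by side.

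**Figure D3:**
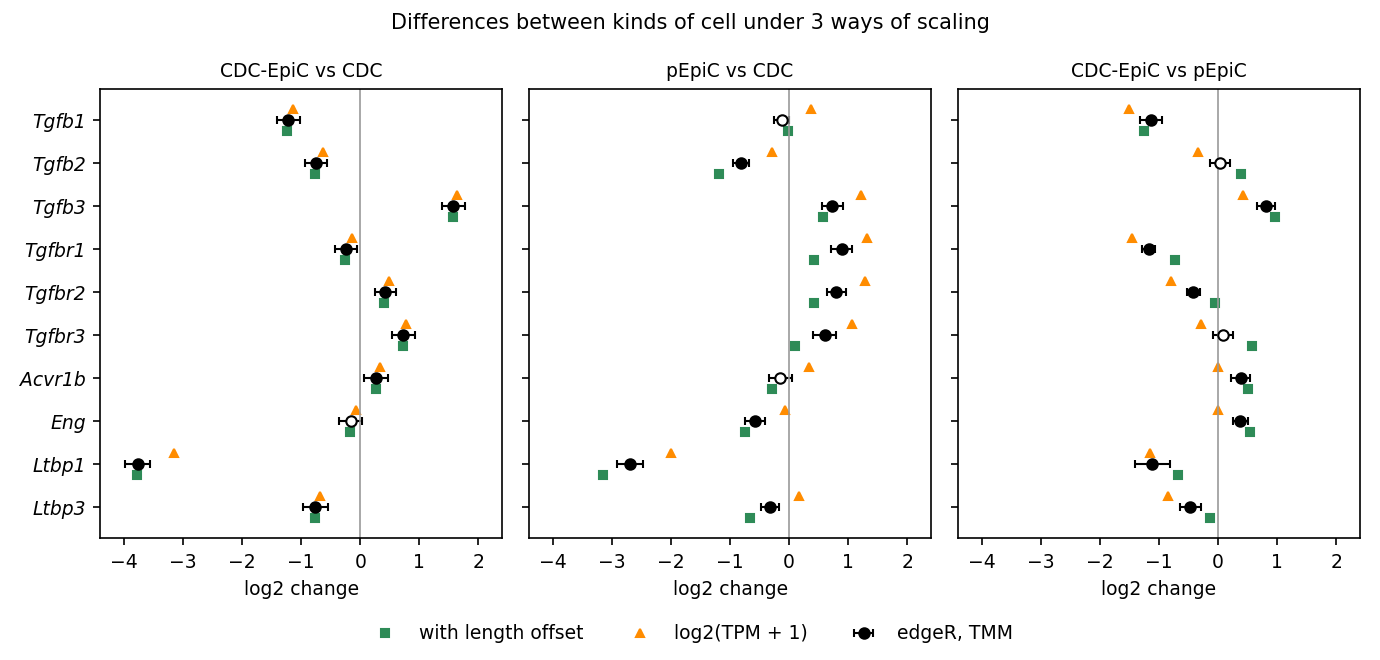
Log2 change of each member in the 3 comparisons. Circles are the edgeR values with 95% intervals (filled where past the threshold), squares the values with the length offset and triangles those of log2(TPM + 1). In CDC-EpiC vs CDC the 3 scalings nearly coincide except for Ltbp1 (-3.77 against -3.15 in TPM), and in both comparisons with pEpiC they spread apart.

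Other genes of the pathway were taken by list. In CDC-EpiC against CDC more genes fell than rose in 5 of the 7 lists, and more rose than fell among the other receptors and the proteoglycans. Of all genes tested, 34.2% rose and 34.6% fell in that comparison. In pEpiC against CDC 39.8% rose and 38.5% fell, with a median of 0.02, and in CDC-EpiC against pEpiC 40.3% were higher and 41.5% lower, with a median of -0.02. The lists are small, and their counts and medians are descriptions beside these shares. Of 8 genes known as TGF-beta targets, 7 fell and 1 rose in CDC-EpiC against CDC, with a median log2 change of -3.07 (0.0027 over all genes). Pmepa1, a feedback inhibitor of the pathway, fell from 177 ± 3.53 to 11.6 ± 2.44 CPM (log2 -3.95, adjusted p = 2.8e-13; SD, n = 3). Tgfbi, which encodes a secreted matrix protein, was the target that rose, from 2.08 ± 0.47 to 3.24 ± 0.44 CPM (log2 0.63, adjusted p = 0.0125). That call was lost with all libraries in 1 fit, without CDC library 2 and without CDC-EpiC library 2, where 0 of the 8 rose and 7 fell. All 8 targets were lower in CDC-EpiC than in pEpiC (median -3.22), with Pmepa1 (log2 -4.88) and Ldlrad4, an inhibitor of Smad signalling (log2 -4.41), at the greatest falls. In pEpiC against CDC 5 rose and 3 fell, led by Tgfbi (log2 4.11, adjusted p = 1.6e-06) and Acta2, smooth muscle actin (log2 -1.88, adjusted p = 4.0e-08). Tgfbi was at 56.2 CPM in pEpiC library 1, with the most macrophage markers, against 28.2 and 26.5, and the part of those cells in its rise was not tested.

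The list of latency and matrix storage genes showed which other carriers stood beside Ltbp1 and Ltbp3. In CDC-EpiC against CDC 2 of 7 rose and 4 fell (median -1.23), beside 34.2% and 34.6% of all genes. Ltbp4, another binding protein of latent TGF-beta, was at 171, 141 and 160.5 CPM in CDC and at 213, 301 and 270.3 in CDC-EpiC, a rise of 0.72 (adjusted p = 3.7e-05). Ltbp2, a fibrillin binder that does not bind latent TGF-beta, rose by 1.22 from 3.55 to 8.33 CPM (adjusted p = 5.8e-05). Lrrc32, which encodes GARP, the cell-surface anchor of latent TGF-beta, was at 46.2, 37.9 and 49.0 CPM in CDC and at 295, 297 and 335 in pEpiC. The clone held 6 to 9 counts of Lrrc32 per library, or 0.343 ± 0.064 CPM (SD, n = 3), a log2 difference of -7.00 from CDC (adjusted p = 7.7e-14) and of -9.80 from pEpiC (adjusted p = 1.2e-11). Emilin1, which restrains processing of the TGF-beta precursor, fell by 1.82 (adjusted p = 3.1e-11).

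Against CDC, pEpiC had 4 of these 7 genes higher and 2 lower (median 1.73), beside 39.8% and 38.5% of all genes. Ltbp2 was 4.69 higher on the log2 scale (adjusted p = 2.8e-10) and Nrros, the anchor of latent TGF-beta on macrophages and microglia, was 3.12 higher (adjusted p = 5.0e-04). Nrros was at 13.2 CPM in pEpiC library 1 against 3.73 and 3.93, and that library was also the highest for the macrophage markers. The part of macrophages in this rise was not tested. Fbn2 and Ltbp4 were lower (log2 -0.58 and -0.33), and with TPM no gene of the list was lower. In CDC-EpiC against pEpiC 1 was higher and 6 were lower (median -2.73), Ltbp4 being the one above (log2 1.01, adjusted p = 1.0e-05) and Ltbp2, after Lrrc32, the greatest of the falls (log2 -3.51). That median ran from -3.03 to -1.96 when a library was left out, the latter without pEpiC library 1.

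Of 11 tested genes that release or process latent TGF-beta, 1 rose and 9 fell in CDC-EpiC against CDC (median -0.29), or 1 and 5 in TPM, where 34.2% of all genes rose and 34.6% fell in CPM. Itgb8, the integrin subunit that pairs with alpha v to release the ligand at the cell surface, rose from 7.76 ± 1.31 to 17.4 ± 2.37 CPM (log2 1.15, adjusted p = 1.6e-06). Itgb5, another partner of alpha v, fell from 244 ± 7.25 to 19.1 ± 0.32 CPM (log2 -3.68, adjusted p = 1.9e-14), and Thbs1, the matricellular protein thrombospondin 1, from 5253 ± 618 to 499 ± 135 CPM (log2 -3.41, adjusted p = 8.2e-11; SD, n = 3). In pEpiC against CDC 7 rose and 1 fell (median 0.39), from Mmp2, a matrix protease (log2 6.30), and Itgb5 (log2 1.36) to Thbs1 (log2 -1.31). With the length offset 6 rose and 3 fell. In CDC-EpiC against pEpiC 1 was higher, Itgb8 (log2 1.06), and 9 were lower (median -1.14), led by Mmp2 (log2 -8.90) and Itgb5 (log2 -5.08). Itgb6 was below the filter in all comparisons.

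Of 7 tested other receptors, 3 rose and 2 fell in CDC-EpiC against CDC (median 0.14), beside 34.2% and 34.6% of all genes. Bambi, a decoy receptor without a kinase domain, rose from 4.42 ± 0.78 to 19.3 ± 2.24 CPM (log2 2.12, adjusted p = 2.0e-09), and Acvr2b, an activin type II receptor, by 1.28 (adjusted p = 3.7e-07). Cd109, a co-receptor that dampens the signal, fell from 176 ± 19.1 to 20.3 ± 2.79 CPM (log2 -3.12, adjusted p = 2.0e-12), and Acvrl1, the type I receptor ALK1, by 0.94 (adjusted p = 3.3e-06). Against CDC, 6 rose and 1 fell in pEpiC (median 0.54), with Acvrl1 at 3.38 and Acvr2a at 2.47 the greatest rises and Cd109 at -1.61 the fall on the log2 scale. With the length offset only 2 of the 6 still rose. In CDC-EpiC against pEpiC 3 were higher and 4 lower (median -0.30), led by Bambi (log2 1.35) and Acvr2b (log2 0.70) and by Acvrl1 (log2 -4.35) and Acvr2a (log2 -2.58).

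The activins, their relatives and antagonists fell in the clone for 5 of 6 tested genes and rose for 1 (median -1.55), where 34.6% of all genes fell. Inhba, the activin A subunit, was at 53.3, 42.5 and 46.4 CPM in CDC and at 2.84, 2.83 and 2.80 in CDC-EpiC (log2 -4.08, adjusted p = 2.1e-13). Fstl3, an activin-binding antagonist, fell by 3.74 (adjusted p = 2.8e-13), and Inha, the inhibin alpha subunit, rose by 0.67 (adjusted p = 0.00484). Between pEpiC and CDC 4 fell in pEpiC (median -0.49), led by Fstl3 (log2 -0.71) and Fst, follistatin (log2 -0.62), and the other 2 did not pass. In TPM 1 fell and 2 rose, with the length offset 4 fell and 2 rose, and without CDC library 3 or pEpiC library 2 4 fell and 1 rose. In CDC-EpiC against pEpiC 5 were lower (median -1.21), among them Inhba (log2 -3.50) and Fstl3 (log2 -3.08), and 1 was higher without CDC-EpiC library 2 or pEpiC library 2. Mstn was below the filter.

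Among 12 Smads and their regulators, 2 rose and 5 fell in CDC-EpiC against CDC (median -0.11), beside 34.2% and 34.6% of all genes. Smad6, an inhibitory Smad that acts mostly on the bone morphogenetic protein branch, rose from 57.2 ± 6.78 to 136 ± 20.1 CPM (log2 1.24, adjusted p = 1.0e-07), and Smad3, a direct substrate of the type I receptor, by 0.61 (adjusted p = 7.3e-06). Skil, a corepressor of Smads that the pathway itself induces, fell by 1.27 (adjusted p = 5.9e-07) and Smurf2, a ubiquitin ligase of the pathway, by 0.81 (adjusted p = 2.1e-07). Of the 12, 9 rose and 2 fell in pEpiC against CDC (median 0.56), where 39.8% of all genes rose and 38.5% fell, with Smad4 at 0.98 and Skil at 0.92 the greatest rises and Smad6 at -0.70 and Smad7 at -0.37 the falls. The length offset cut this to 6 and 3. In CDC-EpiC against pEpiC 1 was higher, Smad6 (log2 1.90), and 9 were lower (median -0.78), led by Skil (log2 -2.23) and Smurf2 (log2 -1.46), or 3 and 8 with the length offset.

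The small proteoglycans that bind TGF-beta divided. In CDC-EpiC against CDC Fmod, fibromodulin, rose by 2.22 (adjusted p = 1.3e-09) and Dcn, decorin, by 1.99 (adjusted p = 3.0e-09), while Bgn, biglycan, fell from 6240 to 684 CPM (log2 -3.20, adjusted p = 2.0e-12). These were the 3 tested of 4 listed (median 1.99). All 4 rose in pEpiC against CDC (median 1.92), Fmod by 2.01 (adjusted p = 4.4e-09). Aspn, asporin, was at 8.92, 10.6 and 7.25 CPM in pEpiC, at 0 counts in every CDC-EpiC library and at no more than 1 count in CDC. Against a floor of 3 counts per library, pEpiC was at least 65.2-fold higher than CDC and at least 66.4-fold higher than CDC-EpiC. Bgn was 3.72 lower on the log2 scale in CDC-EpiC than in pEpiC (adjusted p = 3.3e-10), and 2 of the 4 did not pass there (median -1.81). Without CDC-EpiC library 1 or 3, 1 of the 4 was higher in the clone and 2 were lower. The plot of the pathway lists shows all tested genes of the 7 lists.

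**Figure D4:**
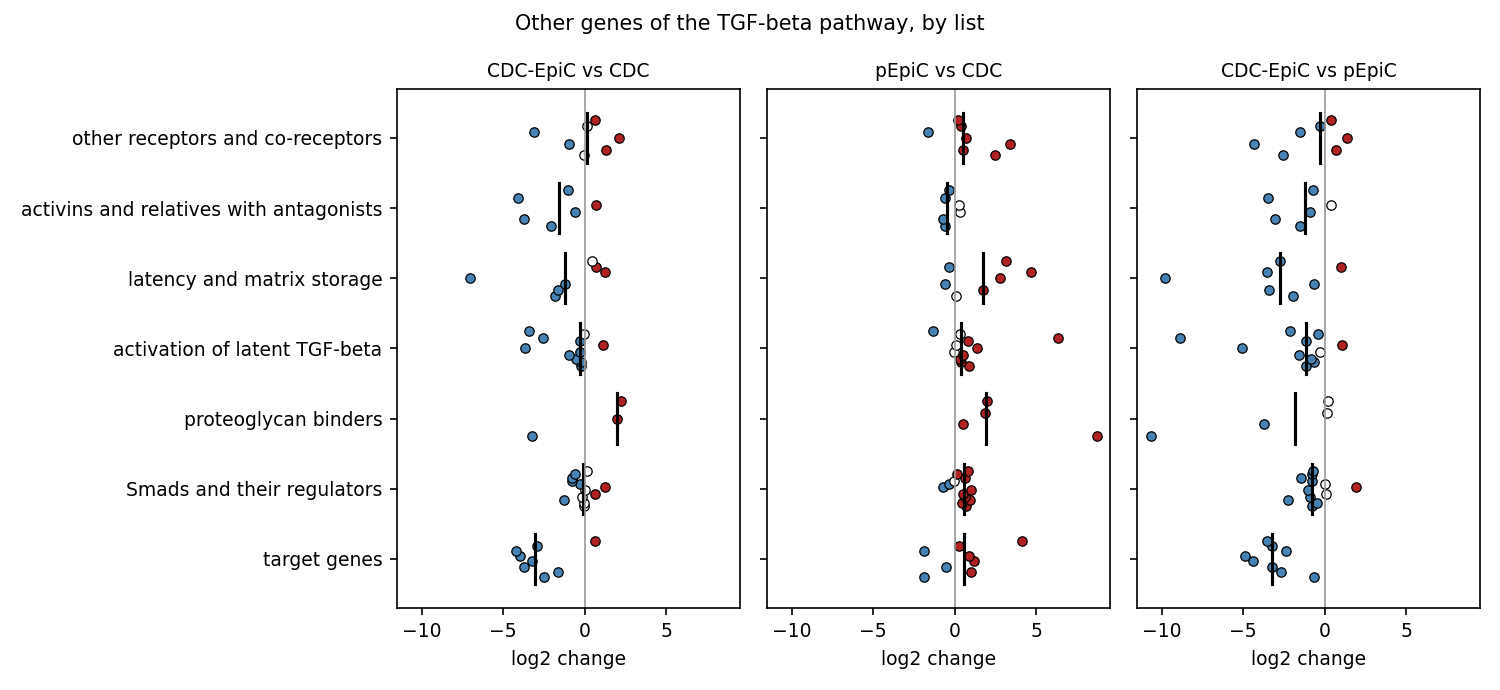
Log2 change of each tested gene of 7 pathway lists in the 3 comparisons (red higher, blue lower and white not past the threshold), with a bar at each list's median. The target genes lie below 0 in CDC-EpiC but for 1 of 8 against CDC, and the 2 points of the proteoglycans beyond 8 are Aspn, fitted against kinds at or near 0 counts.

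The genes whose levels followed each ligand most closely over the 9 libraries were found among 10693 genes with a mean of at least 5 CPM, by Pearson's r of log2(CPM + 1). They were Pde1b (r = 0.996), Ltv1 (0.995) and Slc20a1 (0.995) for Tgfb1, Magee1 (0.988), Prep (0.987) and Tcof1 (0.985) for Tgfb2, and Add3 (0.995), Vipas39 (0.994) and Epb41l5 (0.993) for Tgfb3. Over 0.95 lay 414, 142 and 330 genes for Tgfb1, Tgfb2 and Tgfb3. With 3 kinds of cell that differ in most genes, such values are a description of the 9 libraries.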

How the data were processed

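Messenger RNA of CDC, CDC-EpiC and pEpiC was selected on oligo(dT) beads and read as paired 100-base reads on a BGISEQ-500. For each of 9 libraries the authors deposited TPM, FPKM and expected counts, the last being estimates of reads that were not whole for 30.3% of values, and 9 columns of means that were not used here. The submitters' processing notes name mm10, HISAT2 2.0.4, Bowtie2 2.2.5, RSEM 1.2.12 and DESeq2 1.4.5 with no roles. The annotation and the use of strand are not given in the sources used here. Total expected counts were 22008833 to 22756045 per library. Libraries of a kind differed by more than read sampling, the chi-square over its degrees of freedom being 4.89 to 23.0, and intervals cover counting and library spread only.

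Counts were rounded and each pair of kinds was fitted alone in edgeR 4.0.16 under R 4.3.3 (filterByExpr with minimum count 10 and minimum total 15, TMM, glmQLFit, glmQLFTest, Benjamini-Hochberg, threshold 0.05), after tests on simulated data. All 10 members passed the filter in every comparison. CPM were taken after TMM over all libraries. Alternatives were RLE normalization, DESeq2 1.42.0, other filters, library size alone, 1 fit of all libraries, limma 3.58.1 on log2(TPM + 1) and log2(TPM + 0.1), an offset per gene and library that follows transcript length (lowess, span 0.3, length from the deposited counts and FPKM), each library left out in turn, and the library number as a block. Shares used TPM. Within a library FPKM differs from TPM by a constant factor, so shares from FPKM are the same by construction and check nothing. The length offset was not applied to the shares. Same-numbered libraries of different kinds had deviations correlated at -0.108 to 0.0864, so the numbers were not taken as pairs. Python 3.11.15, pandas 2.3.3, NumPy 2.4.6 and matplotlib 3.10.9 did the rest. Promoter windows are RefSeq's, and overlaps of exons are from GENCODE M21.

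The members and all lists were chosen with earlier results of these data known. All 10 members are named. Of each pathway list the text names, per comparison, up to 2 genes with the greatest rise and 2 with the greatest fall past the threshold and at least 5 CPM in the higher kind, plus those singled out beside a count or a marker value after their levels were seen (Tgfbi in CDC-EpiC, Lrrc32 in pEpiC, Acvr1c, Itgb6 and Mstn). Some genes that this rule selects are not reported here. The text also names the 3 genes most correlated with each ligand.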

Additional observations from a re-analysis of the deposited data

How the results depend on the processing

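Over 30 log2 changes of members and 16 alternatives each, 444 values kept the direction and the side of the threshold, 13 lost the call, 7 gained it and 16 reversed. All reversals involved pEpiC. On the TPM scale with a pseudocount of 1 and 0.1, pEpiC against CDC gave 0.373 and 0.376 for Tgfb1, 0.333 and 0.355 for Acvr1b and 0.167 and 0.168 for Ltbp3. CDC-EpiC against pEpiC gave -0.342 and -0.359 for Tgfb2, -0.286 and -0.293 for Tgfbr3, -0.0027 and -0.0029 for Acvr1b and -0.0043 and -0.0043 for Eng. Tgfb2 in that comparison was also -0.022 with at least 10 counts in every library and ranged from -0.0428 to 0.112 when a library was left out. TPM moved the median of all genes from 0.02 to 0.41 in pEpiC against CDC and from -0.02 to -0.33 in CDC-EpiC against pEpiC, and the cause was not tested. The total of genes or of members past the threshold moved by no more than 1.5 times in any comparison, but its split by direction did not hold in those with pEpiC. On the TPM scale (pseudocount 1) 2822 genes and 2 members were lower in pEpiC than in CDC, against 5213 and 4, and 8237 genes were higher, against 5380. Of the members, 1 was higher in CDC-EpiC than in pEpiC in TPM and 5 with the length offset, against 3, and 3 were lower with the offset, against 5. With the library number as a replicate block, 8831, 10604 and 11096 genes passed in CDC-EpiC against CDC, pEpiC against CDC and CDC-EpiC against pEpiC, against 8928, 10593 and 11091 without it, and no member changed its call. The alternatives for the pathway lists were chosen after seeing the data.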

Other observations

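CDC library 3 was the highest of its kind for 6 of the 10 members (Tgfb2, Tgfb3, Tgfbr1, Tgfbr2, Tgfbr3 and Acvr1b) and the lowest for Eng. The same library lacked the red blood cell genes of CDC libraries 1 and 2, at a summed 0.182 CPM against 52.1 and 83.0, and its summed cardiomyocyte markers were 9.51 CPM against 27.9 and 27.6. Those markers summed to 10.1 to 12.8 CPM in CDC-EpiC and to 137 to 153 in pEpiC, where Tnnt2, a troponin of heart muscle, made up 146, 151 and 135 CPM and Myh6, Actc1, Myl2 and Pln had at most 3 counts in any pEpiC library. Myh6, the alpha myosin heavy chain of heart muscle, was at 0 counts in CDC library 3 against 191 and 190 counts in the other CDC libraries. The part of this content in the members' levels was not tested beyond leaving out each library.

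The platelet and megakaryocyte markers were examined because platelets are rich in TGF-beta 1. They summed to 12.8 to 16.3 CPM in CDC, 18.1 to 19.1 in CDC-EpiC and 7.64 to 10.7 in pEpiC. Itga2b was at a mean of 3.44 CPM in CDC, 17.2 in CDC-EpiC and 2.18 in pEpiC, whereas Gp1bb was at 10.9, 1.25 and 5.35 in that order. Gp9 and Ppbp were at no more than 3 counts in any library, as was Pf4 in CDC-EpiC. The part of platelets in the level of Tgfb1 was not tested. Mesenchymal markers summed to 8232 to 9783 CPM in CDC, 5371 to 6115 in CDC-EpiC and 13129 to 14077 in pEpiC. Of these 6 markers, Col1a2 alone was at a mean of 3921 CPM in CDC, 3352 in CDC-EpiC and 9945 in pEpiC. In pEpiC against CDC 3 of the 6 rose and 3 fell (39.8% and 38.5% of all genes), with a median log2 change of 0.07. In CDC-EpiC 1 rose and 4 fell against CDC (34.2% and 34.6%), and 1 was higher and 5 lower against pEpiC (40.3% and 41.5%).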
